A study of Mus musculus with 6 samples.

Results

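AP-1 (activator protein 1) is a family of leucine zipper transcription factors that bind DNA as pairs. This section describes 10 of its genes, chosen by name (Fos, Fosb, Fosl1, Fosl2, Jun, Junb, Jund, Atf3, Batf and Maff), in whole lung of CD1 mice, an outbred strain, all aged 10 weeks. The 3 intact mice had a sham procedure, which the labels do not describe. The 3 preconditioned mice had received low-pressure mechanical ventilation for 90 minutes, 1 week before sampling. RNA of each mouse was hybridised to its own array, and values are log2 intensities of probe sets after RMA normalization, so that a difference of 1 is a doubling. Each gene was read from its probe set that carried no other gene's symbol, which left 9 of the 10 genes among the 22180 genes tested. Fosl1 shares its probe set with another gene and is not analysed here.

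Fos proteins pair poorly with each other and bind DNA as partners of Jun proteins, whereas Jun proteins also pair among themselves. Fos and Jun are immediate early genes, whose transcription starts within minutes of growth factors, cytokines, stretch or injury and then fades, and mechanical ventilation is a known inducer in lung. Atf3, Batf and Maff lack the strong activation domains of Fos and Jun and often act as repressors or as modifiers of the pair.

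Lung samples carried the markers of the tissue. The mean of 10 lung identity genes (surfactant, alveolar, airway and endothelial markers) lay between 10.50 and 10.68 in intact and between 10.34 and 10.56 in preconditioned mice. Array medians lay between 5.32 and 5.40. In the arrays of preconditioned mice the upper quartile was slightly lower (6.94 to 6.95, against 6.97 to 7.03 in intact mice), and genes of high value tended to read lower in that group. Among the 5545 genes of highest mean value (7.40 to 13.77), which include Fos, Fosl2, Jun, Junb and Jund, the median log2 difference between preconditioned and intact lungs was -0.13, against 0.01 over all genes.

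Fos mRNA was lower in every preconditioned mouse than in any intact mouse, and Jun and Fosl2 had the same order of groups with smaller gaps. Their log2 differences, preconditioned minus intact, were -1.06 (Fos), -0.51 (Jun) and -0.28 (Fosl2). None of the 9 members passed an adjusted p of 0.05 in limma (Benjamini-Hochberg over all 22180 genes), a threshold that 0.0947% of all genes passed. At an unadjusted p under 0.05, 3 members were lower and 0 higher, where 11.6% of all genes were lower and 7.53% higher. The groups did not overlap, with the preconditioned mice lower, for the same 3 members, against 13.0% of all genes, and 0 members were apart in the other direction, against 11.7%. All 3 belong to the genes of highest mean value, where these shares were larger: 25.3% were lower at an unadjusted p under 0.05 and 27.6% had lower, non-overlapping preconditioned values, against 3 of the 5 members there. Of the 9 members, 8 had a lower mean in preconditioned lungs, and the median of the 9 differences was -0.15.

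**Figure D1:**
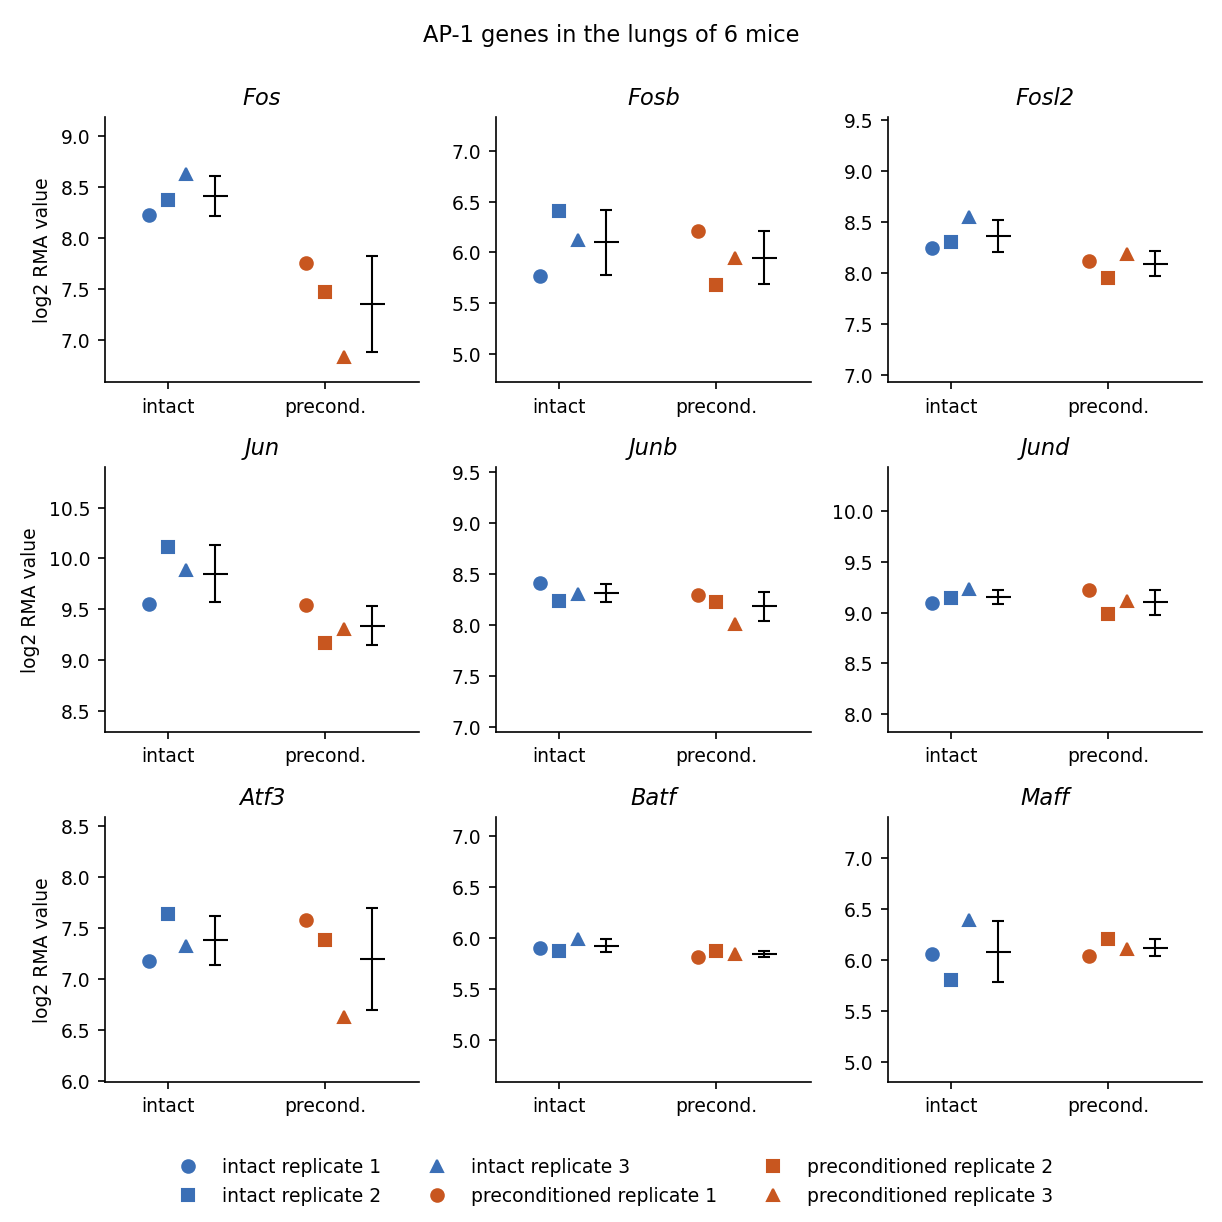
Log2 RMA values of 9 AP-1 genes (y axis, each panel spanning the same range) in 3 intact and 3 preconditioned mice, with 1 point per mouse and the mean ± SD of each group in black. The points of the groups lie apart for Fos, Fosl2 and Jun, by 0.48, 0.06 and 0.01, and overlap for the other 6 genes.

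Among the Fos family, Fos (probe set 17277387), the founding partner of Jun, read 8.22, 8.37 and 8.63 in the intact mice and 7.75, 7.47 and 6.83 in the preconditioned mice. Every preconditioned value lay below every intact value, with 0.48 between the nearest mice, and preconditioned replicate 3 was the lowest. The group means were 8.41 ± 0.20 and 7.35 ± 0.47 (SD, n = 3), a 2.08-fold lower level (log2 difference -1.06, SE 0.22, 95% confidence interval -1.57 to -0.54, unadjusted p = 0.00141, adjusted p = 0.086 in limma). Of all genes, 0.365% had a difference as low as this or lower. At an adjusted p under 0.1, which 2.89% of all genes passed, Fos was the single member. The spread among the preconditioned mice (0.92 from highest to lowest) exceeded that among the intact mice (0.40), and without preconditioned replicate 3 the difference was -0.80 (adjusted p = 0.219).

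Fosl2 (probe set 17436237), which encodes Fra-2, a Fos family protein that persists longer after stimulation, read 8.24, 8.30 and 8.55 in intact and 8.12, 7.95 and 8.19 in preconditioned mice. The groups were apart by 0.06, with preconditioned replicate 3 closest to intact replicate 1. Its log2 difference was -0.28 (SE 0.11, 95% confidence interval -0.54 to -0.01, adjusted p = 0.244 in limma). Fosb (probe set 17487211), another early gene of the family, read 5.77, 6.41 and 6.12 against 6.21, 5.68 and 5.95. Here the groups overlapped, since preconditioned replicate 1 was above intact replicates 1 and 3, and the difference of -0.15 (SE 0.19) had an interval from -0.58 to 0.28.

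Among the Jun family, Jun (probe set 17427312) read 9.55, 10.11 and 9.89 in intact and 9.54, 9.17 and 9.31 in preconditioned mice. Intact replicate 1 and preconditioned replicate 1 differed by 0.01, and the other 4 mice lay further apart. The log2 difference was -0.51 (SE 0.16, 95% confidence interval -0.88 to -0.14, 1.42-fold lower, adjusted p = 0.152 in limma). Without intact replicate 1 it was -0.66 (adjusted p = 0.0446), and Fos was at -1.15 (adjusted p = 0.0499). Both then passed, in a fit in which 5.54% of all genes passed. With array weights, where 5.07% of all genes passed, Fos passed (-1.16, adjusted p = 0.0353) and Jun did not (-0.59, adjusted p = 0.0552).

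Junb (probe set 17511259), a Jun family protein that often restrains Jun, read 8.41, 8.23 and 8.30 in intact and 8.29, 8.22 and 8.01 in preconditioned mice. Preconditioned replicate 3 stood below the rest, and the other 5 mice overlapped (log2 difference -0.14, SE 0.11, interval -0.38 to 0.11). Jund (probe set 17502001), the family member with steady expression in resting cells, varied least among the Jun genes, with 9.09, 9.14 and 9.23 against 9.22, 8.99 and 9.11. Its difference of -0.05 (SE 0.10, interval -0.27 to 0.17) excluded a change as large as that measured for Fos or Jun. A second Jund probe set (17510127), with 6.36, 6.50 and 6.63 against 6.85, 6.52 and 6.41, gave 0.10 (SE 0.14), so the sign of the small Jund difference depended on the probe set.

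Atf3 (probe set 17231033), a stress-induced repressor, read 7.18, 7.64 and 7.33 in intact and 7.58, 7.38 and 6.63 in preconditioned mice. Preconditioned replicate 3 was the lowest, as for Fos and Junb, while replicates 1 and 2 of that group lay within the intact range. The difference was -0.19 (SE 0.24, interval -0.74 to 0.36), and it was 0.10 without preconditioned replicate 3. Batf (probe set 17277404), a partner of Jun proteins in lymphocytes and dendritic cells, was the most even member, with 5.91, 5.88 and 5.99 against 5.82, 5.88 and 5.85 (difference -0.08, SE 0.08). Maff (probe set 17312989), a small Maf protein, read 6.06, 5.80 and 6.39 against 6.04, 6.20 and 6.11, and was the single member with a higher mean in preconditioned lungs (0.03, SE 0.15, interval -0.31 to 0.37). Its sign changed without intact replicate 2 and without preconditioned replicate 2.

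**Figure D2:**
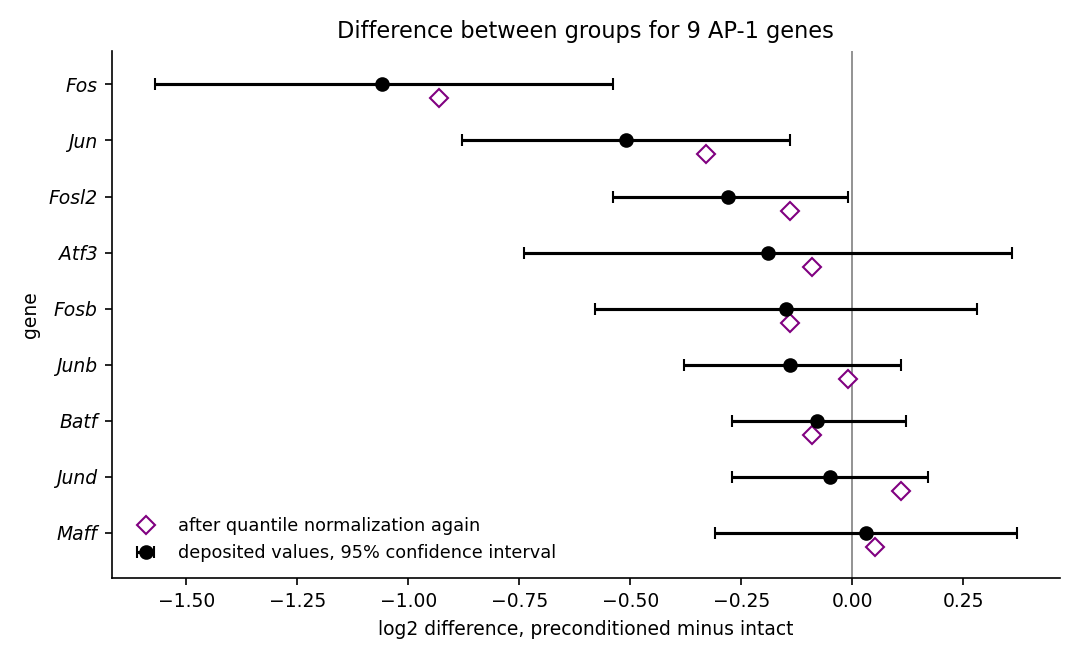
Log2 difference, preconditioned minus intact (x axis), for 9 AP-1 genes (y axis), with black points for the deposited values, bars for limma's 95% confidence interval, and open diamonds after a further quantile normalization. The intervals of Fos (-1.57 to -0.54), Jun (-0.88 to -0.14) and Fosl2 (-0.54 to -0.01) exclude 0, and those of the other 6 genes include it.

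The size of these differences depended on the normalization. After a further quantile normalization, which gives the arrays the same distribution over genes, Fos was at -0.93, Jun at -0.33 and Fosl2 at -0.14. The Jun and Fosl2 groups then overlapped, Junb was at -0.01 and Jund at 0.11, with every preconditioned value of Jund above every intact value. In that setting 2 members (Fos and Jun) were lower at an unadjusted p under 0.05, against 8.25% of all genes. The groups were apart with preconditioned mice lower for 2 members (Fos and Batf), against 10.0% of all genes. Cyclic loess gave -0.94 for Fos, -0.34 for Jun, -0.15 for Fosl2 and 0.11 for Jund.

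**Figure D3:**
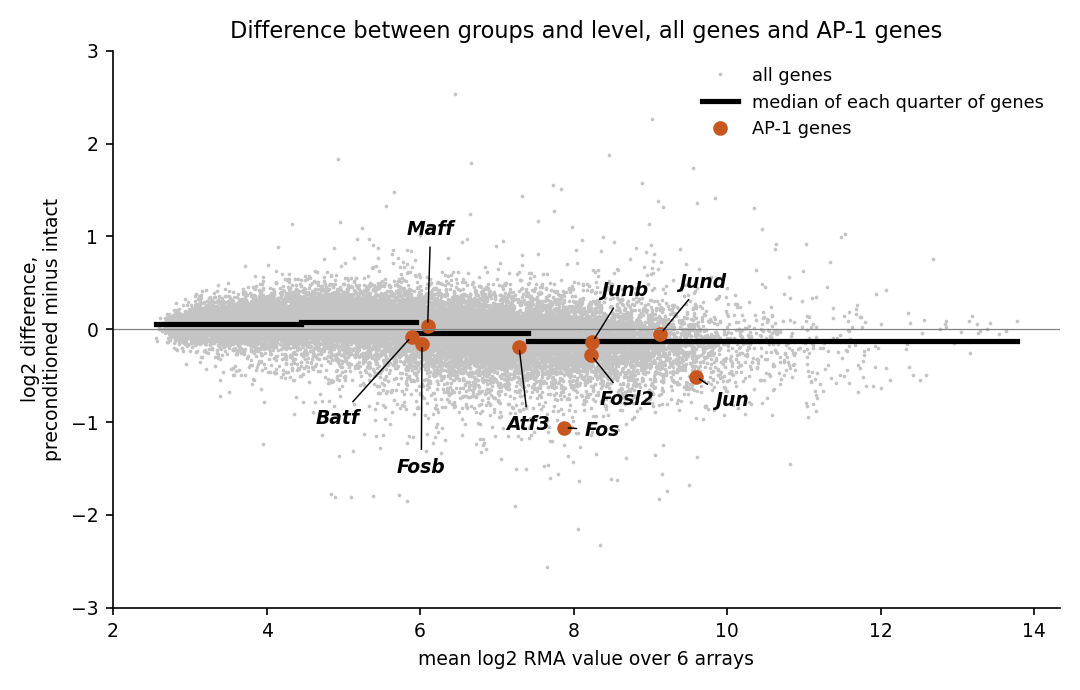
Log2 difference, preconditioned minus intact (y axis), against the mean log2 RMA value over the 6 arrays (x axis) for 22180 genes in grey and 9 AP-1 genes in orange, with black bars for the median difference of 4 classes of 5545 genes by value. The medians run from 0.06 and 0.08 at low to -0.04 and -0.13 at high values, and Fos lies at -1.06 with Jun at -0.51.

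The stretches before the start sites of Fos and Jun show elements by which early genes are known to be switched on, and are printed because these genes had the largest differences. All 9 measured members had an entry among RefSeq's promoters (GRCm38.p6), and the 250 bases before each start were searched on both strands. The motifs were TGACG, the core of the cyclic AMP response element (CRE), the full CRE TGACGTCA, which contains that core, the AP-1 site TGANTCA (TRE), its variant TGACATCA, and the TATA box TATAAA. The Fos stretch is chr12:85473640-85473889 on the plus strand and the Jun stretch chr4:95052223-95052472 on the minus strand, both given 5′ to 3′ along the gene, with matches in capitals.
Fos: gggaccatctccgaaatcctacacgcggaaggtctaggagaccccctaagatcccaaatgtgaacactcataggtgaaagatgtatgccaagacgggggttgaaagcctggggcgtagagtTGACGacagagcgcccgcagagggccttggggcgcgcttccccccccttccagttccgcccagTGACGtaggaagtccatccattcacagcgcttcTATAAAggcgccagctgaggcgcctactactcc
Jun: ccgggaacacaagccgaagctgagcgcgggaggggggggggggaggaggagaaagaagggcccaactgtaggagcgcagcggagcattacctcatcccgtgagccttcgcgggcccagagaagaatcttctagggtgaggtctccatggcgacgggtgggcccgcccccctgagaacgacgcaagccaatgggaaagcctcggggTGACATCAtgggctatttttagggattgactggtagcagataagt
Fos held TGACG at 66 to 62 and at 129 to 125 bases before the start and TATAAA at 33 to 28, and Jun held TGACATCA at 45 to 38.

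The CRE core was in 17.8% of all 32851 promoters of this length, which belong to 27025 genes. Of the 9 members, with 11 windows because Maff has 3, 6 had the core in any window. The members are thus counted by gene and the 17.8% by promoter. For each of the 6, 1 core is shown here with 10 bases on each side where the window reaches.
Fos: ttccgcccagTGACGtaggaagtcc
Fosb: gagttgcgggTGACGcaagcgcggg
Junb: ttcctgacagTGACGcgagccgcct
Batf: tctaacttgtTGACGtttccgccca
Maff: gctggggcggTGACGtcactgcatg
Atf3: aatagcattaCGTCAgc
The capitals mark the core, which in Atf3 reads on the opposite strand. Maff, with 3 annotated starts, held the full CRE (1.55% of all promoters) before the second. Before the third start it held TGACATCA (2.93%) and a further core, on the opposite strand at 122 to 118 bases. TGANTCA (6.75%) was in no member's window, and TATAAA (12.4%) was in that of Fos alone. Members with the core had differences from -1.06 (Fos) to 0.03 (Maff), and those without it had -0.51 (Jun), -0.28 (Fosl2) and -0.05 (Jund).

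Genes around AP-1 were read from fixed lists, chosen with earlier results of these data known. Their counts are to be read against all genes (at an unadjusted p under 0.05, 11.6% lower and 7.53% higher). They are also to be read against the genes of highest mean value (25.3% lower). Of 11 measured relatives and dimer partners, 2 were lower and 0 higher at an unadjusted p under 0.05, with a median difference of -0.08. Both were among the 5 relatives that belong to the genes of highest value. Atf2, a Jun partner that binds the CRE, was at -0.42 (SE 0.11, adjusted p = 0.114), and Atf7, its close relative, at -0.31 (SE 0.11, adjusted p = 0.178). Of 17 kinases and factors upstream, 3 were lower and 1 higher (median -0.11), which is near the shares of all genes. Of the 13 among the genes of highest value, 2 were lower. Elk1, a ternary complex factor that acts at the Fos serum response element, read 7.44, 7.40 and 7.55 in intact and 6.97, 7.16 and 7.00 in preconditioned mice (-0.43, SE 0.10, adjusted p = 0.0949). The groups of Elk1 lay apart. Map2k6, a kinase that activates p38, was at 0.47 (SE 0.14, adjusted p = 0.141), the other way. None of the genes of these lists, of the 20 targets or of the 20 early genes below passed an adjusted p of 0.05 in limma, and the medians of both lists above were 0.03 and 0.01 after a further quantile normalization.

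Of 20 measured genes known as AP-1 targets, 8 were lower and 1 higher at an unadjusted p under 0.05 (median -0.16, and -0.18 after a further quantile normalization), against 11.6% and 7.53% of all genes. Of the 9 targets among the genes of highest value, 5 were lower, against 25.3% of all genes there. Cd44, the hyaluronan receptor, read 8.91, 9.10 and 9.16 in intact and 8.51, 8.46 and 8.24 in preconditioned mice (-0.65, SE 0.11, adjusted p = 0.0776). Il1b, which encodes interleukin 1 beta, read 7.62, 8.61 and 9.25 against 6.84, 6.60 and 7.26 (-1.60, SE 0.37, adjusted p = 0.0972). Both genes had groups apart, and they are among the 5 of 20 targets with groups apart in the lower direction (13.0% of all genes, and 27.6% of those of highest value), while 2 were apart in the higher direction (11.7% of all genes). The mean of the 20 targets overlapped between the groups (6.95 to 7.17 in intact and 6.66 to 6.97 in preconditioned mice). Of 20 early genes outside AP-1, 8 were lower and 0 higher (median -0.20, and -0.10 after a further quantile normalization), and 7 had groups apart, lower in preconditioned mice, against 13.0% of all genes. Of the 10 among the genes of highest value, 6 were lower and 5 had groups apart. Btg2, an antiproliferative early gene, was at -0.88 (SE 0.13, adjusted p = 0.0556), and Egr1, a zinc finger early gene, at -0.83 (SE 0.14, adjusted p = 0.0803). The mean of that list was 8.08 in intact and 7.75 in preconditioned mice, with a highest preconditioned value of 7.90 that lay below every intact value.

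Genes whose 6 values ran most like those of Fos, among named genes above the median value of all genes (5.95), were Pkhd1l1, the large surface protein fibrocystin-L (Pearson r = 0.995 over 6 arrays), the zinc finger gene Zscan29 (0.994), Rasgrp4, a Ras activator of mast cells (0.991), the sulfate transporter gene Slc13a4 (0.989) and the autophagy gene Atg9a (0.989). These correlations are descriptions, and since the Fos values of the groups lie apart they include the group difference. Pkhd1l1 read 7.62, 7.93 and 8.01 in intact and 7.17, 6.77 and 6.17 in preconditioned mice, so that the mice of each group stood in the order they had for Fos. That order comes with the choice of Pkhd1l1 by its correlation with Fos and is no separate result. Among the members, r with Fos was 0.80 for Jun, 0.77 for Junb, 0.68 for Fosl2, 0.65 for Atf3 and Batf, 0.46 for Jund, 0.40 for Fosb and 0.03 for Maff. The lowest mouse was preconditioned replicate 3 for Fos, Junb and Atf3, and preconditioned replicate 2 for Fosb, Fosl2, Jun and Jund, so that the members did not share a single order of mice.

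Markers of several cell types were also lower in preconditioned lungs. In whole lung, fewer cells of a type and less RNA per cell cannot be told apart. The marker lists were chosen with earlier results of these data known, so their counts are no independent test. All 6 mesothelial markers, which mark the pleural lining, were lower at an unadjusted p under 0.05 and 5 had groups apart, against 11.6% and 13.0% of all genes. Their mean was 7.76, 8.08 and 8.21 in intact and 7.43, 6.99 and 6.67 in preconditioned mice. Each group stood in the order it had for Fos (r = 0.99 over 6 arrays). The mean of the AP-1 targets had that order too (r = 0.92 with Fos). Its preconditioned replicates 2 and 3 were nearly tied (6.67 and 6.66), where Fos read 7.47 and 6.83. For the mean of the early genes outside AP-1 r was 0.96, for heat shock genes 0.89, for lung identity 0.71 and for cardiac muscle 0.14. Upk3b, a mesothelial surface protein gene, was at -1.56 (SE 0.31, adjusted p = 0.086), and Gpm6a at -1.35 (SE 0.18, adjusted p = 0.0503). Of 9 monocyte and macrophage markers, 7 were lower, with means of 8.26 to 8.86 in intact and 7.78 to 7.85 in preconditioned mice (r = 0.86 with Fos). Of 10 neutrophil markers, 6 were lower at that threshold and 9 had a lower mean. Their list means were 5.46 to 6.92 and 5.19 to 5.39, the highest in intact replicate 3. Of 9 lymphocyte markers, 4 were lower at that threshold and all 9 had a lower mean (list means 7.02 to 7.67 and 6.54 to 6.97). Among the genes of highest mean value, 25.3% were lower at that threshold. There, 3 of 3 mesothelial, 4 of 6 monocyte and macrophage, 1 of 1 neutrophil and 1 of 3 lymphocyte markers were lower. The other markers of these lists belong to genes of lower value, where smaller shares of all genes were lower (1.44% to 15.0%). Of 7 heat shock genes, which respond to stress, 6 were lower at an unadjusted p under 0.05 and all 7 had a lower mean (list means 8.47 to 8.58 and 7.56 to 7.71). Of these, Hspa1b passed over all genes (-2.55, SE 0.12, adjusted p = 0.000557 in limma), and Hspa8, a constitutive chaperone, was at -0.59 (SE 0.09, adjusted p = 0.0556). Cardiac muscle markers, which can enter with pulmonary veins, had 0 of 6 past an unadjusted p of 0.05 and means of 8.27 to 8.82 in intact and 6.22 to 9.73 in preconditioned mice. The part of these cell types and of the heat shock genes in the Fos and Jun differences was not tested. Log2 array values have no true zero, so no marker could be called absent.

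**Figure D4:**
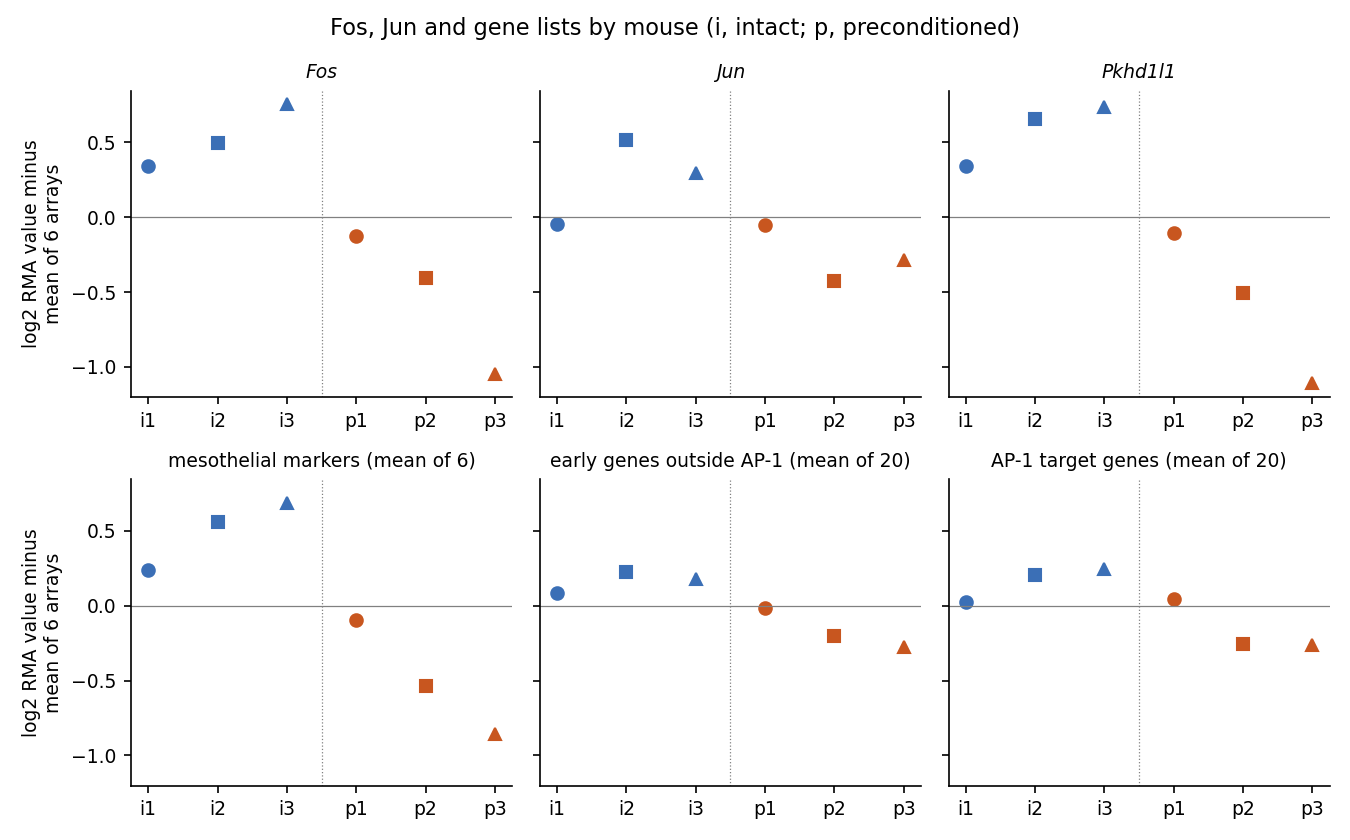
Log2 RMA value minus the mean of the 6 arrays (y axis) by mouse (x axis: i1 to i3 intact, p1 to p3 preconditioned replicates) for Fos, Jun, Pkhd1l1 and the means of 3 gene lists. Fos and the means of the mesothelial markers and of the AP-1 targets rank the mice of each group alike. The targets have preconditioned replicates 2 and 3 at nearly the same value (6.67 and 6.66). Pkhd1l1, picked for its correlation with Fos, has the same ranks as Fos. Jun has intact replicate 1 and preconditioned replicate 1 at nearly the same value (9.55 and 9.54).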

How the data were processed

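The authors deposited log2 values made with RMA (background correction, quantile normalization and summary per probe set), and limma is also named, per the submitters' processing notes. Tool versions, filters and a genome build: not given in the sources used here. The table held 41345 probe sets, of which 23521 had 1 gene symbol, 1814 several and 16010 none in the probe annotation. For each gene the probe set with the highest mean over 6 arrays was used, which gave 22180 genes.

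All genes were fitted with limma (lmFit and eBayes, no covariate, preconditioned minus intact, two-sided), with Benjamini-Hochberg adjustment over all genes and a threshold of 0.05. The fit was tested on simulated data. Labels call the arrays biological replicates and give no further origin. Members and gene lists were chosen with earlier results of these data known. Named genes were all members, the 2 genes of lowest p of each list and the 5 genes most correlated with Fos; some lists are given by counts and means alone, without their 2 genes. Alternatives covered normalization, filter, prior, array weights, block, probe sets, threshold and each array left out. Same-numbered mice of the groups deviated from their group means with correlations of -0.063, -0.309 and -0.065 across genes. With 3 arrays per group these values cannot tell whether same-numbered mice shared an origin, so pairing is unknown. Array values have no read depth, and 3 arrays per group limit the precision. R 4.3.3, limma 3.58.1, python 3.11.15 and matplotlib 3.10.9 were used.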

Additional observations from a re-analysis of the deposited data

How the results depend on the processing

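The count of 0 members past an adjusted p of 0.05 (limma) became 1 with array weights (Fos), 1 at an adjusted p under 0.1 (Fos) and 0 to 2 when 1 array was left out, with 2 (Fos and Jun) without intact replicate 1. The adjusted p of Fos ranged from 0.0353 to 0.308 and that of Jun from 0.0446 to 0.404 over 15 alternatives, and the difference stayed below 0 in all 15 for both. The median difference of the members (-0.15) was -0.23 with array weights and ran from -0.29 (without intact replicate 1) to -0.08 (without preconditioned replicate 3). The count of members with groups apart (3) ran from 3 to 5 with 1 array left out, where 15.4% to 23.1% of all genes were apart in that direction, against 13.0% with all arrays; it was 5 without intact replicate 2 (15.8% of all genes). Fosl2 passed an unadjusted p of 0.05 in 8 of 15 alternatives. The sign changed for Jund in 4 alternatives (further quantile normalization, cyclic loess, mean over probe sets and without preconditioned replicate 2), for Maff in 2 and for Atf3 in 1. With the replicate block, Fos was at -1.06 (adjusted p = 0.196) and 0 members passed. Over all genes, 21 passed an adjusted p of 0.05, against 4 with the block, 1125 with array weights, 55 with an intensity trend, 33 with median centring, 76 of the 11090 above the median value, and 2 to 1228 with 1 array left out. The causes were not tested. A filter at the median value removed Batf.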
